A study of Rattus norvegicus with 12 samples.

Results

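The genes described here encode the nuclear subunits of the mitochondrial respiratory chain and of ATP synthase, with a few of their assembly factors. They were taken from the deposited table by name, as every transcript whose gene name begins with Nduf, Uqcr, Cox4 to Cox8 or Atp5, or is Sdha, Sdhb, Sdhc or Sdhd. Of 98 transcripts matched, 90 had a value above 0 in at least 1 liver, and where a gene had several the one with the highest mean was kept. This gave 81 genes of the 15270 gene names above 0 in the table. A further 4 names, Atp5hl1, Cox8c, Ndufb4l1 and Ndufs6, were listed at 0 in all 12 livers. The rule used no measured difference between groups, but it was chosen with earlier results of these data known.

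The livers came from 12 female rats of the inbred alcohol-preferring iP10a line, which drinks ethanol by choice. In the EtOH group, 6 animals had free access to bottles of 10, 20 and 30% ethanol (v/v), besides food and water, for 23 weeks. The 6 controls had food and water only. All animals were 38 weeks old at collection except EtOH animal 6, which was 39 weeks old. All rats share 1 inbred background, and intake was by choice and not set by dose. Poly(A) RNA of each liver was sequenced as its own library, and levels were deposited as RPKM, the reads of a transcript per kilobase of its length, scaled to the mapped reads of its library.

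The respiratory chain sits in the inner mitochondrial membrane and passes electrons from NADH (complex I) and succinate (complex II) through complex III and cytochrome c to oxygen at complex IV. The proton gradient that complexes I, III and IV build drives ATP synthase, also called complex V. Most subunits are encoded in the nucleus and imported, while a small core is encoded by mitochondrial DNA, so that each complex other than II needs products of both genomes. Ethanol oxidation in hepatocytes produces NADH, which this chain reoxidizes.

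Few transcripts of the chain differed between EtOH and control livers. After quantile normalization of log2(RPKM + 0.5), which gives every liver the same distribution of values, 1 of the 81 genes was called at a Benjamini-Hochberg adjusted p below 0.05 with limma, the complex I assembly factor Ndufaf4, which was lower in EtOH livers. Among all 21718 transcripts tested, 1.29% were called lower and 1.13% higher, or 2.42% in either direction, against 1.23% of the genes. None of the 69 subunits was called, and 0 genes were called higher. At an unadjusted p below 0.05, 8 genes were lower and 4 higher, or 14.8% of the 81. Among all transcripts 7.42% were lower and 8.07% higher at that level, or 15.5% in all. The median log2 fold change of the 81 genes was -0.005, with 41 genes below 0 and 40 above. That of all transcripts was 0.0002, with 50% of them below 0.

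After quantile normalization the values also set limits on the size of a difference on that scale. For 68 of the 69 subunits the 95% interval of the log2 fold change lay within ±0.5, a change of 1.41-fold. The exception was Ndufa13, which rested on 1 read in all. The median half-width of the interval over the subunits was 0.15 on the log2 scale. On RPKM as deposited some intervals reached below -0.5, such as to -0.59 for Ndufb2, -0.54 for Cox5b and -0.51 for Cox8a. The limits therefore hold for the quantile-normalized scale only.

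**Figure D1:**
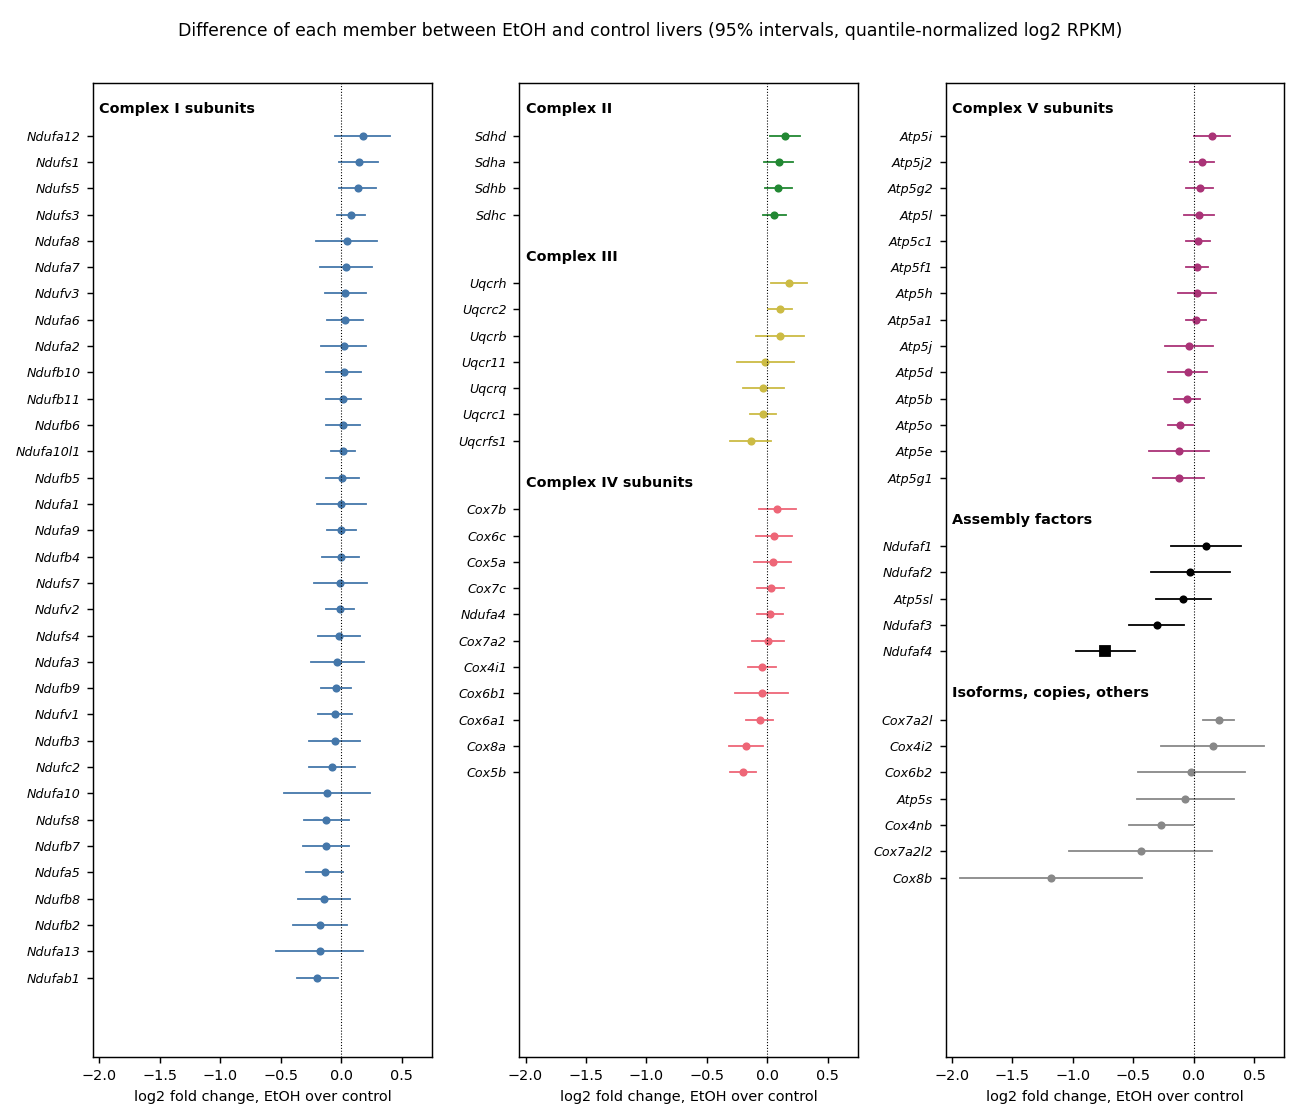
Each point is the log2 fold change of 1 gene between 6 EtOH and 6 control livers on quantile-normalized log2(RPKM + 0.5), with its 95% interval from limma, ordered within each group of genes (colours mark the groups). Ndufaf4, drawn as a square, is the 1 gene past an adjusted p of 0.05, at -0.73. The intervals of the rare isoform Cox8b and of Cox7a2l2, a copy named after subunit 7a2, are the widest.

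Ndufaf4 encodes a factor that complex I needs for its assembly and that is not part of the finished complex. It was read from chromosome 5, 39939787 to 39944958, as the authors list it, on a genome build that the sources used here do not give. Its RPKM ran from 6.59 over a median of 8.54 to 9.33 in the control livers. In the EtOH livers it ran from 3.74 over a median of 4.51 to 5.53. The lowest control liver, that of animal 6, lay above the highest EtOH liver, that of animal 3, so the groups did not overlap. The mean was 8.41 ± 0.948 in controls and 4.54 ± 0.690 in EtOH animals (SD, n = 6 each), a ratio of 0.540. The log2 fold change was -0.73 with a standard error of 0.11 (limma, adjusted p = 0.0067), on 383 reads in the control and 292 in the EtOH livers. It was called under every alternative computed, with adjusted p from 0.0027 to 0.047.

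Ndufaf3, which is known to act together with Ndufaf4 in the assembly of complex I, came next among the assembly factors. Its RPKM ran from 5.63 over a median of 6.14 to 8.79 in control livers and from 3.90 over a median of 5.02 to 5.23 in EtOH livers. Here too the groups did not overlap, but the log2 fold change of -0.31 (SE 0.11) did not pass the threshold (limma, adjusted p = 0.17). The other assembly factors overlapped between the groups. Ndufaf1 had a log2 fold change of 0.10, Ndufaf2 of -0.03 and Atp5sl, which is named after ATP synthase but known as a complex I factor, of -0.09. Ndufaf3 and Ndufaf4 were among the least abundant genes of the set, with mean RPKM of 5.70 and 6.47, where the median gene had 62.2.

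On the RPKM as deposited, 4 genes had no overlap between the groups, and all of them were lower in EtOH livers. These were Ndufaf4, Ndufaf3, Cox5b and Ndufa5, or 4 of 81 genes, where 2.43% of all transcripts lay wholly below and 0.677% wholly above the controls. After quantile normalization Ndufa5 overlapped and the other 3 did not, where 1.26% of all transcripts lay wholly below. These 4 genes are shown here with the 190 bases before their annotated start in RefSeq (build GRCr8), because they are the ones whose livers separate. Atp5i, a small subunit of ATP synthase, is added because its window holds all 3 of the motifs searched, for factors known to act on nuclear genes of mitochondrial proteins. These were GCGCA followed after any 1 base by GCGC for NRF1, CCGGAAG for GABP and AAGATGGC for YY1, each on both strands, and matches stand in capitals.
Ndufaf4, chr5:43401605-43401794, + strand: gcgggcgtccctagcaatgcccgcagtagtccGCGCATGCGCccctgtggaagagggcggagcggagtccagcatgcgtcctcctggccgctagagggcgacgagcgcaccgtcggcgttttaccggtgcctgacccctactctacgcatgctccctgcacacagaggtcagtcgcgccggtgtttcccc
Ndufaf3, chr8:118141724-118141913, - strand: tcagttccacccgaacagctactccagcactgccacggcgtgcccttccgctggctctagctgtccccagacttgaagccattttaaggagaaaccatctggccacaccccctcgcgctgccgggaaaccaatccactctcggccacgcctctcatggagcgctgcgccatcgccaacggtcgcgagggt
Cox5b, chr9:46417647-46417836, + strand: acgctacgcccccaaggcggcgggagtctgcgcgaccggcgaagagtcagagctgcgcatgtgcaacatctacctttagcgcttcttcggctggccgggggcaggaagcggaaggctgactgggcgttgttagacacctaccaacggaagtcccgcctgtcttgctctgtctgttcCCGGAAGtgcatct
Ndufa5, chr4:53971236-53971425, - strand: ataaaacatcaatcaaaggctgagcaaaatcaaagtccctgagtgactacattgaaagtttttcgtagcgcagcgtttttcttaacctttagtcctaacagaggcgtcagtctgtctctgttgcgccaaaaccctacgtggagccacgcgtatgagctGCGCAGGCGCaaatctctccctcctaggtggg
Atp5i (RefSeq symbol Atp5me), chr14:1464670-1464859, + strand: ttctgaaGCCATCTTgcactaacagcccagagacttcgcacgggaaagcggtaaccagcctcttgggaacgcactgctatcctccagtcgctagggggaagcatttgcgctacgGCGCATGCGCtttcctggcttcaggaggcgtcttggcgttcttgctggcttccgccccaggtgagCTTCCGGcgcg

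None of the 3 motifs was found in all 4 separating genes. Ndufaf4 held the NRF1 letters from base -158 and Ndufa5 from base -32, counted from the annotated start, Cox5b held the GABP letters from base -14, and Ndufaf3 held none of the 3 in its window of 300 bases. Over the 71 genes that matched a RefSeq promoter, each with 250 bases before and 50 after the start, 12 (16.9%) held the NRF1 letters, 22 (31.0%) the GABP letters and 14 (19.7%) the YY1 letters. Of all 33469 promoters of that length, 4.25%, 8.75% and 3.17% held them. At least 1 motif was found in 56.3% of the 71 promoters and in 14.6% of all, and the median GC content was 57.7% and 51.7%. The GABP and YY1 letters can overlap by 3 bases, and a match describes letters only, not a bound site.

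Complex I had the most genes measured, with 33 subunits, of which 31 had a mean RPKM of at least 10. Its median log2 fold change was -0.005, with 17 subunits below 0 and 16 above, and the lowest adjusted p was 0.24 (limma). Ndufa6, an accessory subunit, was the most abundant, with 132 ± 18.7 RPKM in controls and 121 ± 10.8 in EtOH animals (SD, n = 6 each). It was followed by Ndufv2, an iron-sulfur core subunit, with 119 ± 14.0 and 106 ± 5.98. The 2 subunits with the smallest p were Ndufab1, the mitochondrial acyl carrier protein, and Ndufs1, the iron-sulfur protein of the NADH-oxidizing arm. Their log2 fold changes were -0.20 (SE 0.08, adjusted p = 0.24) and 0.15 (SE 0.07, adjusted p = 0.38), with overlapping groups in both. Ndufa5, an accessory subunit, ran from 42.3 over a median of 48.1 to 53.0 RPKM in control livers and from 34.8 over a median of 39.4 to 42.1 in EtOH livers. Its highest EtOH value lay just under its lowest control value. After quantile normalization its log2 fold change was -0.14 (SE 0.07, adjusted p = 0.40), whereas on RPKM as deposited it was -0.30 (adjusted p = 0.028), so that its call depended on the scaling.

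A few rows of complex I need care. Ndufa10 on chromosome 6 and Ndufa10l1 on chromosome 9 are near copies whose reads can be split, with mean RPKM of 7.46 and 45.4. The rows of Ndufa10, Ndufa13 and Atp5e lie on another chromosome than the RefSeq gene of that name, while the other 68 of 71 matched rows lie on the same one. RefSeq places Ndufa10 on chromosome 9, where the Ndufa10l1 row lies. These 3 rows may be copies and may not measure the genes named, but they are counted among the subunits and promoters here. Ndufv3 had a second, less abundant transcript that was not used, with 13.5 ± 0.865 RPKM in controls and 9.58 ± 1.72 in EtOH animals. Its groups did not overlap, and its log2 fold change was -0.37 (SE 0.09, adjusted p = 0.064), while the main Ndufv3 transcript, with 87.9 ± 9.90 and 80.5 ± 5.32 RPKM, had 0.03.

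In complex II, succinate dehydrogenase, which is also an enzyme of the citric acid cycle, all 4 subunits had about equal levels. The mean RPKM over the 12 livers lay between 91.2 (Sdhc, a membrane anchor) and 100.5 (Sdha, the flavoprotein). Sdhd, the other anchor, ran from 76.9 over a median of 97.7 to 104 in control livers and from 83.0 over a median of 93.8 to 101 in EtOH livers, with full overlap. Its log2 fold change was 0.14 (SE 0.06, adjusted p = 0.25), and those of Sdha, Sdhb and Sdhc were 0.09, 0.09 and 0.06. The direction for these subunits turned with the scaling. All 4 were above 0 after quantile normalization (median 0.09) and after median scaling (0.03), and all 4 were below 0 as deposited (-0.06).

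Complex III was represented by 7 subunits, with a median log2 fold change of -0.02. Uqcrfs1, the Rieske iron-sulfur protein, was the most abundant, with 116 ± 15.6 RPKM in controls and 94.9 ± 8.93 in EtOH animals (log2 fold change -0.14, SE 0.08, adjusted p = 0.46). Uqcrh, the hinge protein, had the largest positive value, 0.18 (SE 0.07, adjusted p = 0.22), on 65.4 ± 9.55 and 66.3 ± 6.64 RPKM. The core protein Uqcrc2 had 0.10 (SE 0.04, adjusted p = 0.29). The groups overlapped in all of these subunits. Cyc1, the haem-bearing subunit outside the name rule, was not matched and was not analysed here, and the electron carrier Cycs had a log2 fold change of -0.08 (SE 0.07, adjusted p = 0.65), with 89.8 ± 5.09 and 76.6 ± 7.63 RPKM.

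Complex IV, cytochrome c oxidase, held 11 subunits, counting Ndufa4, which was first described in complex I. Their median log2 fold change was 0.004. Cox5b, a subunit of the matrix side, came nearest to a call after Ndufaf4. Its RPKM ran from 138 over a median of 150 to 193 in control livers and from 108 over a median of 119 to 130 in EtOH livers. No EtOH liver reached the level of a control liver, and control animal 3 stood above the rest of its group. The mean was 154 ± 20.6 RPKM in controls and 119 ± 8.05 in EtOH animals, but the log2 fold change of -0.20 did not pass the threshold (SE 0.05, limma, adjusted p = 0.058). It was called as deposited (-0.36, adjusted p = 0.029) and when transcripts under a mean RPKM of 1 were dropped (adjusted p = 0.037), where 3.97% of the transcripts left were called lower. Cox8a, with 192 ± 17.97 and 154 ± 20.0 RPKM, had -0.18 (SE 0.07, adjusted p = 0.20). The most abundant subunits, Cox4i1 with 328 ± 38.3 and 297 ± 16.2 RPKM and Cox6c with 234 ± 11.8 and 222 ± 20.7, had -0.04 and 0.05.

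For subunits 4, 6b and 8 of complex IV, which have alternative isoforms, the usual liver form was the main one read. Cox6a2 and Cox7a1 were not among the matched names, so forms of subunits 6a and 7a were not compared. Cox4i1, Cox6b1 and Cox8a had mean RPKM of 312.6, 62.2 and 173, and their counterparts Cox4i2, Cox6b2 and Cox8b, known from lung, testis, and heart and muscle, had 0.112, 0.0733 and 1.68. Cox4i2 rested on 1 read in the control and 3 in the EtOH livers, and Cox6b2 on 1 and 1, so no difference was detectable at this depth. Cox8b was read 18 times in control and 7 times in EtOH livers, from 0.672 over a median of 2.02 to 5.72 RPKM in controls and from 0.476 over a median of 0.659 to 1.41 in EtOH animals. The groups overlapped through control animal 6, and its log2 fold change of -1.18 (SE 0.35) did not pass the threshold (adjusted p = 0.10) unless that animal was left out (-1.40, adjusted p = 0.035). Cox7a2l, which is known to link complexes III and IV in supercomplexes, had the largest positive value of the set, 0.21 (SE 0.06, adjusted p = 0.096). As deposited it had 44.7 ± 3.98 RPKM in controls and 46.0 ± 2.90 in EtOH animals, with a log2 fold change of 0.04. Cox7a2l2, a copy named after subunit 7a2, had 6.03 ± 1.67 and 4.15 ± 1.67 RPKM, with overlap. Its log2 fold change was -0.44 (SE 0.27, limma, adjusted p = 0.49).

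Complex V held 14 subunits and the most abundant gene of the set, Atp5b, the catalytic beta subunit. Atp5b ran from 631 over a median of 653 to 810 RPKM in control livers and from 607 over a median of 649 to 723 in EtOH livers, with a log2 fold change of -0.06 (SE 0.05, adjusted p = 0.65). Atp5a1, the alpha subunit, had 316 ± 25.0 and 299.9 ± 16.9 RPKM and a log2 fold change of 0.02. The 2 groups lay over each other for both genes. The smallest p in this complex were those of Atp5o, the stalk protein OSCP, at -0.11 (SE 0.05, adjusted p = 0.29), and Atp5i, at 0.15 (SE 0.07, adjusted p = 0.32). The proton-carrying ring subunit is encoded by several genes, and Atp5g1 had 165 ± 13.1 and 138 ± 23.2 RPKM, with 94.6 in EtOH animal 2, while Atp5g2 had 198 ± 19.6 and 184 ± 15.4. Their log2 fold changes were -0.13 and 0.05 (adjusted p = 0.61 and 0.66). The median over the complex was 0.02, with 6 subunits below 0 and 8 above. The set also holds Atp5s, a coupling factor, and Cox4nb, which is named for its place beside Cox4i1 and is not a respiratory chain protein. They are not counted as subunits, isoforms or assembly factors, and had -0.07 and -0.27 (limma, adjusted p = 0.89 and 0.31).

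**Figure D2:**
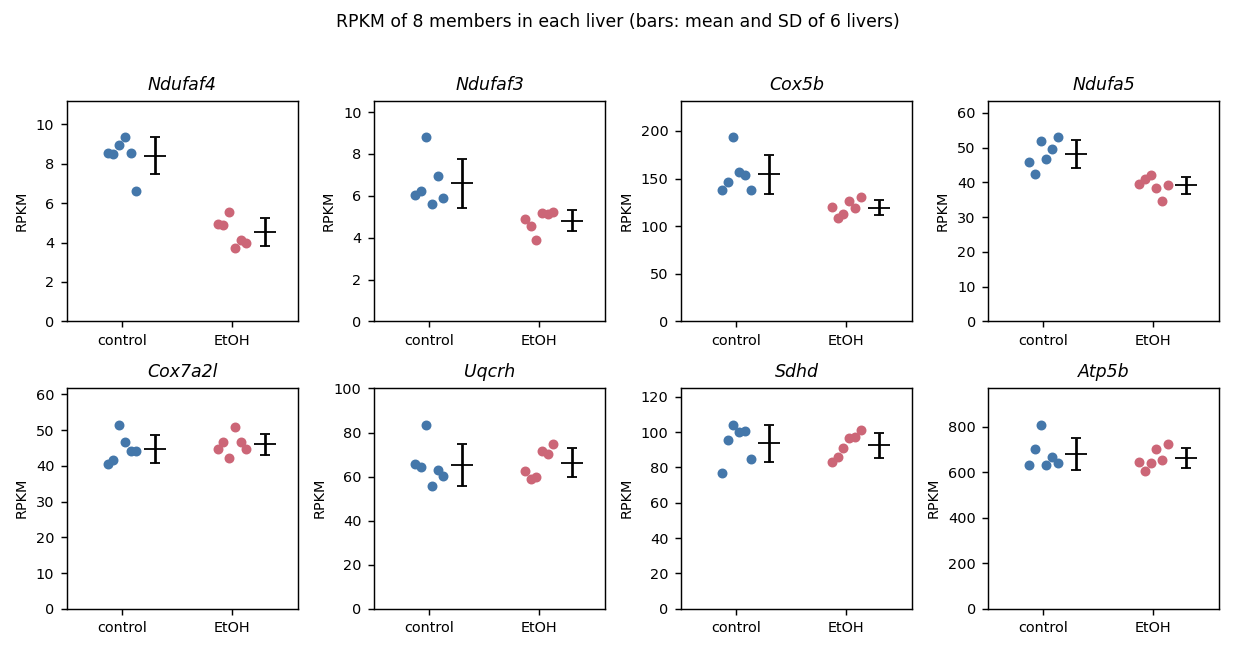
RPKM as deposited of 8 genes in each of 6 control and 6 EtOH livers, with a black bar for the mean and SD of each group and axes from 0. The livers separate for Ndufaf4, Ndufaf3, Cox5b and Ndufa5, and overlap for Cox7a2l, Uqcrh, Sdhd and Atp5b.

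The direction of many of these genes depended on the scaling between livers, with 35 of the 81 turning between quantile-normalized values and RPKM as deposited, and 22 between quantile normalization and median scaling. As deposited, 76 of the 81 genes had a log2 fold change below 0, with a median of -0.15, where 53.3% of all transcripts lay below 0. Of the 81 genes, 3 were called lower (Ndufaf4, Ndufa5 and Cox5b), where 2.98% of all transcripts were. At an unadjusted p below 0.05, 27 genes were lower and 0 higher as deposited, where 11.4% of all transcripts were lower and 5.48% higher. Other abundant transcripts lay as low on that scale, since the 3748 others whose mean RPKM was 10 or more had a median of -0.14, as did the 69 genes of the set above that level. After median scaling, 61 genes lay below 0, where 46.3% of all transcripts did, with a median of -0.06 against -0.05 for those other abundant transcripts. The set therefore lay near the middle of transcripts of its level under each scaling, and 95.7% of its genes above that level were below 0 as deposited where 72.5% of the others were.

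**Figure D3:**
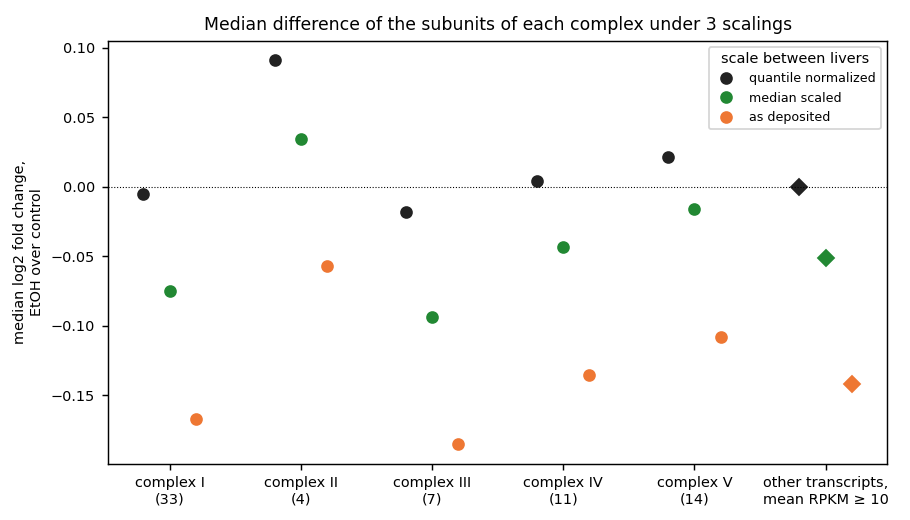
Median log2 fold change (EtOH over control) of the subunits of each complex under 3 scalings, with the number of subunits in brackets, and of all other transcripts whose mean RPKM was 10 or more (diamonds). As deposited, every complex lies below 0, between -0.19 and -0.06, as do the other transcripts at -0.14, and after quantile normalization the complexes lie between -0.02 and 0.09.

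The summed RPKM of the 81 genes was 7681 ± 697 in control and 6961 ± 407 in EtOH livers (SD, n = 6 each), with overlap. By complex, the sums of the EtOH group were lower by 11.7% for complex I, 3.75% for II, 9.87% for III, 10.8% for IV and 7.38% for V, and the groups overlapped in each. Control animal 3 stood apart, with 8986 RPKM, and was the highest of the 12 livers for 54 of the 81 genes as deposited and for 25 after quantile normalization. EtOH animals 2 and 3 were the lowest for 22 and 18 genes as deposited. Without control animal 3, 73 of 81 genes were below 0 as deposited, at a median of -0.10, against -0.02 over all transcripts. Ndufaf4 and Cox5b were called, where 2.57% of all transcripts were called in either direction. The number lower at an unadjusted p below 0.05 then went from 27 to 15. Other abundant transcripts were not compared without that animal. With that animal left out after quantile normalization, Ndufaf4 alone was called.

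**Figure D4:**
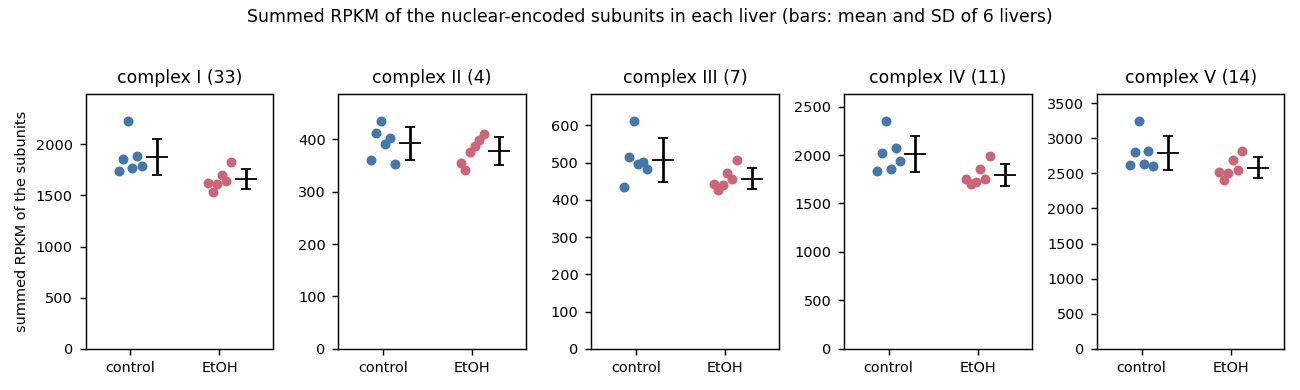
Summed RPKM as deposited of the nuclear-encoded subunits of each complex in 6 control and 6 EtOH livers, with a black bar for the mean and SD of each group and axes from 0. Control animal 3 is the highest point in every panel, and the groups overlap in each complex.

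The mitochondrial genome encodes the remaining 13 subunits, which the name rule does not take, and their transcripts were far more abundant, with a median mean RPKM of 4932. Of the 13, 3 were called lower and 0 higher in EtOH livers after quantile normalization, against backgrounds of 1.29% and 1.13%. The mitochondrially encoded complex I subunit mt-Nd3 (MT, 9451 to 9798) ran from 1608 over a median of 1855 to 2192 RPKM in controls and from 1244 over a median of 1354 to 1414 in EtOH animals. Its log2 fold change was -0.40 (SE 0.07, limma, adjusted p = 0.014). For mt-Nd6 (MT, 13543 to 14061), another complex I subunit, the mean was 1253 ± 180 in controls and 961 ± 75.1 in EtOH animals (log2 fold change -0.38, SE 0.08, adjusted p = 0.032). For mt-Cyb (MT, 14136 to 15278), the cytochrome b of complex III, it was 6389 ± 686 and 4837 ± 297 (log2 fold change -0.30, SE 0.065, adjusted p = 0.035). The groups did not overlap in any of these 3, nor for mt-Nd4, which was not called (-0.20, adjusted p = 0.29). The calls of mt-Nd6 and mt-Cyb were lost after median scaling (adjusted p = 0.12 for each), and that of mt-Nd6 also without the trend (0.054) and in the square-root test (0.062).

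Among the other mitochondrially encoded transcripts, log2 fold changes ran from -0.11 for mt-Nd5 to 0.05 for mt-Atp8. The 3 subunits of cytochrome c oxidase, mt-Co1, mt-Co2 and mt-Co3, had 0.00, -0.02 and 0.04. Because mt-Co1 held the same rank in all 12 livers, quantile normalization makes its values equal, and they say nothing about a difference on that scale. As deposited, all 13 lay below 0, with a median of -0.19 and -0.06 for mt-Co1. The values of mt-Co3 and mt-Atp6, also among the most abundant, depended on the scaling too. They were 0.04 and -0.03 after quantile normalization but -0.26 and -0.21 as deposited (limma, adjusted p = 0.33 and 0.38), with overlapping groups. Control animal 3 was low for mt-Nd4l and mt-Nd5, with 632 and 967 RPKM against group medians of 1179 and 1837, although it was the highest liver for most nuclear subunits. The transcripts of MT took 7.52 to 9.75% of the reads of the control livers and 7.11 to 7.97% of those of the EtOH livers. The reading frames of mt-Nd4l and mt-Nd4, of mt-Nd5 and mt-Nd6 and of mt-Atp8 and mt-Atp6 overlap. Use of strand in the counting is not stated, so reads in these stretches cannot be told apart. The library steps that the paper describes include none that keeps the strand. For mt-Nd6, as for the others, reads from either strand cannot be told apart.

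**Figure D5:**
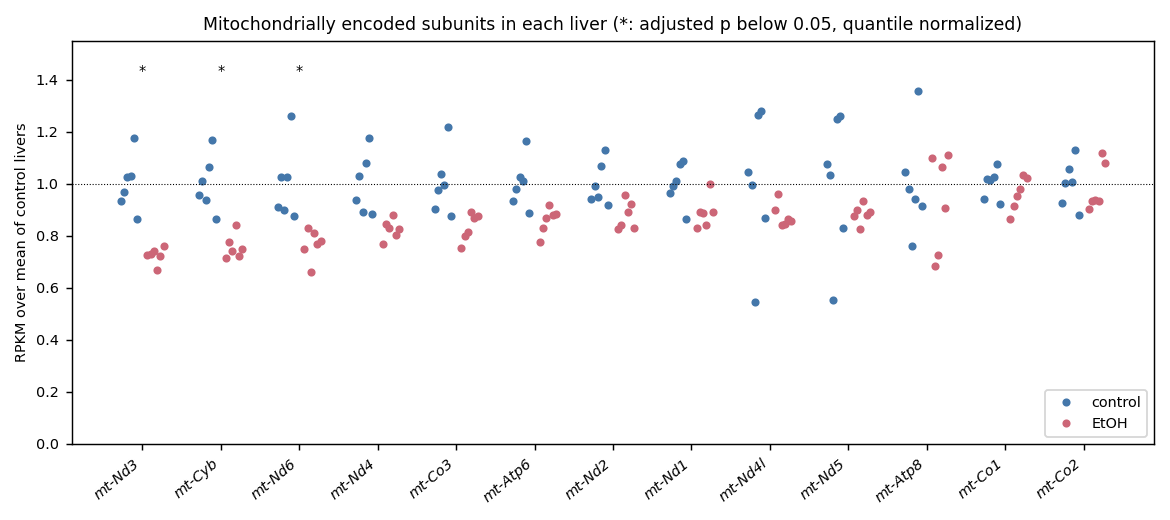
RPKM as deposited of each mitochondrially encoded subunit in 6 control and 6 EtOH livers, divided by the mean of the control livers, on a linear axis from 0. Stars mark an adjusted p below 0.05 after quantile normalization (mt-Nd3, mt-Cyb and mt-Nd6), and the 2 low control points of mt-Nd4l and mt-Nd5 are animal 3.

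Other genes around the chain were compared by list. Of 27 assembly factors outside the name rule that were found, 0 were called with limma, with 7 lower and 1 higher at an unadjusted p below 0.05, where 7.42% of all transcripts were lower and 8.07% higher. Among those were Sdhaf3, a complex II factor, with 5.96 ± 1.24 and 3.80 ± 1.32 RPKM (adjusted p = 0.21), and Ecsit, a complex I factor, with 24.2 ± 2.38 and 18.5 ± 3.27 (adjusted p = 0.26). Of 11 quinone-reducing, uncoupling and related inner membrane proteins tested, 1 was called in each direction, where 1.29% of all transcripts were called lower and 1.13% higher. Nnt, which makes mitochondrial NADPH from NADH with the proton gradient, rose from a range of 27.8 to 36.8 RPKM in control livers to 38.1 to 42.3 in EtOH livers, without overlap (chromosome 2, 51496459 to 51589901). Its log2 fold change was 0.44 (SE 0.08, limma, adjusted p = 0.013). Etfb, the beta subunit of the flavoprotein that passes electrons from fatty acid oxidation towards ubiquinone, was lower, with ranges of 207 to 282 RPKM in control and 173 to 203 in EtOH livers (chromosome 1, 93820124 to 93834284). Its groups did not overlap either, and its log2 fold change was -0.22 (SE 0.05, adjusted p = 0.036). The call of Etfb was lost after median scaling (limma, adjusted p = 0.058), without the trend (0.090) and in the square-root test (0.051).

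The 15 regulators of mitochondrial gene expression found had 0 calls with limma, with 2 lower and 0 higher at an unadjusted p below 0.05, against 7.42% and 8.07% of all transcripts. Ppargc1a, the coactivator PGC-1α, had 0.525 ± 0.322 RPKM in controls and 0.871 ± 0.401 in EtOH animals (log2 fold change 0.39, SE 0.24, adjusted p = 0.49). Nrf1, whose motif letters are shown above, had 1.63 ± 0.809 and 1.15 ± 0.955 (-0.51, SE 0.44, adjusted p = 0.65). The nuclear receptor Esrra and Tfam, which packages mitochondrial DNA, had 0.00 and -0.04 (adjusted p = 1 and 0.82). Pprc1, a relative of PGC-1α, had groups without overlap and a log2 fold change of -0.54 (SE 0.15, adjusted p = 0.089). Of 15 other mitochondrial proteins, such as citrate synthase, porins and import receptors, 0 were called with limma, with 2 lower and 0 higher at an unadjusted p below 0.05, against the same 7.42% and 8.07%.

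Recovered reads ran from 2610238 to 4318141 in the control and from 3945593 to 6030028 in the EtOH livers, so the EtOH values rest on more reads. The liver label was met by the hepatocyte markers, with mean RPKM of 74718 for Alb and 5279 for Ttr. Of the 7 hepatocyte markers found, 1 was called, Cps1 of the urea cycle, which was higher in EtOH livers without overlap (log2 fold change 0.58, SE 0.11, limma, adjusted p = 0.022). At an unadjusted p below 0.05, Cyp2e1, an ethanol-oxidizing cytochrome P450, was also higher (0.34, adjusted p = 0.072). Markers of other liver cells moved with the groups. All 7 macrophage markers (3 called), all 7 stellate cell or fibroblast markers (1 called) and all 4 endothelial markers (1 called) had a log2 fold change above 0, with medians of 0.46, 0.34 and 0.35. Among all transcripts 1.13% were called higher and 50% lay below 0. On RPKM as deposited, 1, 1 and 0 of these markers were called. Their summed RPKM ran from 142.5 to 213 in control and from 190 to 241 in EtOH livers for macrophages, from 24.6 to 34.5 and from 31.3 to 50.7 for stellate cells, and from 24.8 to 32.2 and from 28.5 to 39.6 for endothelial cells. Lymphocyte, cholangiocyte, erythroid and muscle lists had 0 calls with limma and 0 genes at an unadjusted p below 0.05, and the muscle markers Ckm and Myh7 were at 0 in all livers. The part of these markers in the values above was not tested. In whole liver, fewer cells of a type and less RNA per cell cannot be told apart.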

How the data were processed

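Per the file headers, the authors deposited RPKM values for each liver. Their methods name CLCbio Genomics Workbench for mapping 101-nucleotide paired-end reads. The sorted values differ between livers, so no quantile step had been applied. Fold changes and test statistics of the authors were also deposited and were not used. Of 34391 transcripts, 21718 were above 0 in at least 1 liver and entered the fit. Values were taken as log2(RPKM + 0.5), quantile normalized and compared with limma 3.58.1 with a mean-variance trend in R 4.3.3, and p was adjusted by the Benjamini-Hochberg method over all transcripts. Other steps used Python 3.11.15. Whole reads were recovered from the ratios of RPKM as the smallest whole numbers that fit (100% of transcripts, within 0.01 of a read). The 2052 transcripts above 0 in 1 liver only meet this by construction with 1 read. Counts of transcripts seen in few livers are therefore lower limits. Intervals cover the spread between animals. Replicates were separate animals.

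The members and lists were chosen with earlier results of these data known. Named were the called genes, the 2 most abundant subunits and the 2 with the smallest p in each complex, the 2 assembly factors with the smallest p, isoform families, all Sdh subunits and genes without overlap. Other genes named, such as Ndufv3, Sdhaf3, Ecsit and Pprc1, were chosen after their values were seen. Alternatives were other pseudocounts, scalings, filters, tests and samples. Promoters came from RefSeq GRCr8. The procedure was tested on simulated data.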

Additional observations from a re-analysis of the deposited data

Results flagged for a closer look

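A liver far from the rest of its group was found for 12 of 104 groups of 6 livers. Chance gives about 1 in 20 for independent, normally distributed values. The groups here are genes read in the same 12 livers, so that rate is not a fair comparison. In RPKM as deposited, control animal 3 was the highest of its group for Atp5a1 (364), Cox5b (193), Cox7a2 (154) and Uqcrh (83.6). Control animal 6 was the lowest for Ndufaf4 (6.59) and lay nearest to the EtOH livers, which reached 5.53. EtOH animal 2 was the lowest for Atp5g1 (94.6), against 139 to 159 in the rest of the group. EtOH animal 6 was the highest for Atp5g2 (214) and Cox8b (1.41), and EtOH animal 5 for mt-Nd1 (5608). The remaining flags rested on single reads, with Cox4i2 in control animal 1 (0.488) and Cox6b2 in control animal 6 (0.449) and EtOH animal 5 (0.430), where the other livers of the group were at 0. A single value among values of 0 is always flagged.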

How the results depend on the processing

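Ndufaf4 was called under every alternative run, with log2 fold changes from -0.86 to -0.68. The count of called genes of the set was 1 and became 3 without normalization between livers, 2 with transcripts under a mean RPKM of 1 dropped, and 1 to 2 with 1 liver left out in turn (2 without control animal 6, which adds Cox8b). The share called among all transcripts changed too. It was 2.42% in the main fit, 3.56% without normalization and 7.76% with the rare transcripts dropped. Of the genes of the set tested, 1.23%, 3.7% and 2.56% were called in these. Pseudocounts of 0.1 and 1, the square-root test of the study, no trend, voom, median scaling and counting every transcript of a gene left the count at 1. The depth limits the rare genes, such as Cox4i2 with 1 recovered read in the control and 3 in the EtOH livers. The row of Ndufa13, with 1 recovered read in all, lies on chromosome 7, whereas RefSeq places the gene on chromosome 16. It may not measure that gene.

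The medians moved with the scaling. For all genes and complexes I, II, III, IV and V, they were -0.147, -0.167, -0.057, -0.185, -0.136 and -0.108 without normalization. With voom, run with no normalization between livers either and so not an independent scale, they were -0.137, -0.158, -0.040, -0.176, -0.126 and -0.099. The median of all transcripts was then -0.144. Median scaling moved that of all genes to -0.060, of complex I to -0.075 and of complex II to 0.035. Without normalization and without control animal 3, chosen after seeing the data, 2 genes were called, where 2.57% of all transcripts were. The medians of all genes and complexes I, II, IV and V were then -0.100, -0.116, -0.031, -0.080 and -0.074, where that of all transcripts was -0.021. With 1 liver left out in turn, medians ran from -0.020 to 0.019 for all genes, -0.026 to 0.017 for I, 0.080 to 0.110 for II, -0.035 to 0.051 for III, -0.026 to 0.026 for IV and 0.00069 to 0.030 for V.

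Some genes that were not called changed sign. Without normalization these were Atp5a1 (-0.076), Atp5g2 (-0.105), Atp5i (-0.010), Cox6c (-0.083), Cox7a2 (-0.166), Ndufa4 (-0.126), Ndufa6 (-0.126), Ndufs1 (-0.0089), Sdha (-0.053), Sdhb (-0.061), Sdhc (-0.085), Sdhd (-0.012), Uqcrc2 (-0.039), mt-Atp8 (-0.106) and mt-Co3 (-0.256). With voom they were Atp5a1 (-0.060), Atp5g2 (-0.093), Atp5i (-0.00688), Cox6c (-0.074), Cox7a2 (-0.155), Ndufa4 (-0.109), Ndufa6 (-0.118), Ndufs1 (-0.000127), Sdha (-0.040), Sdhb (-0.040), Sdhc (-0.067), Uqcrc2 (-0.021), mt-Atp8 (-0.102) and mt-Co3 (-0.240). With median scaling they were Atp5b (0.056), Atp5g2 (-0.013), Cox7a2 (-0.074), Ndufa4 (-0.034), Ndufa6 (-0.035), mt-Atp8 (-0.014), mt-Co2 (0.070) and mt-Co3 (-0.163). With 1 liver left out in turn, Cox6b2 ran from -0.165 to 0.147, Cox7a2 from -0.026 to 0.039, Ndufa4 from -0.0028 to 0.050, Ndufa6 from -0.015 to 0.077, Ndufv2 from -0.041 to 0.0091, Esrra from -0.080 to 0.075, Tfam from -0.082 to 0.012, mt-Atp8 from -0.055 to 0.141, mt-Co2 from -0.037 to 0.022 and mt-Nd4l from -0.239 to 0.032. The cause of these changes was not tested.

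Of the genes in the lists of mitochondrial genes outside the set, 5 were called, where 2.42% of all transcripts were. Without normalization 6 were called, where 3.56% of all transcripts were. The gene added without normalization was Vdac3 (limma, adjusted p = 0.046). The lists held 2, 13, 27, 11, 15 and 15 tested genes. Nnt and mt-Nd3 stayed called with any 1 liver left out. Etfb lost its call without any 1 of 8 livers (adjusted p 0.051 to 0.082; control animals 2, 4 and 5 and EtOH animals 1 to 5). The call of mt-Cyb was lost without any 1 of 9 (0.057 to 0.075; control animals 1, 2, 4 and 5 and EtOH animals 1, 2, 3, 5 and 6), and that of mt-Nd6 without any 1 of 7 (0.052 to 0.071; control animals 2 and 4 and EtOH animals 1, 2, 3, 5 and 6). The rat numbers did not pair the livers, with correlations of equally numbered livers from -0.067 to 0.032. With the replicate block 1 gene of the set was called and 0 of the 5 others (limma, adjusted p 0.083 for Nnt to 0.14 for Etfb), though all 5 had an unadjusted p below 0.05. Over all transcripts the block gave 113 calls, of which 107 were among the 526 made without it.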
